A study of Saccharomyces cerevisiae with 40 samples.

Results

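Serine and urea were compared as the nitrogen source of budding yeast, Saccharomyces cerevisiae, on 2 two-colour DNA arrays. The members are the genes with a value on both arrays titled serine against urea: 3275 of the 5557 genes that the 40 arrays of the series measure. Another 1537 genes had a value on 1 serine array and 745 on neither. Cells of strain Σ1278b grew in minimum medium with 3% glucose on serine at 10 mM or on urea at 10 mM, for at least 10 generations, and were collected at low density while growing exponentially. Replicate 1 carried serine RNA in the Cy5 channel and urea RNA in Cy3, and replicate 2 carried the dyes the other way round. The other 19 nitrogen sources, threonine and alanine among them, were set against urea in the same medium, with 2 arrays each and at 10 mM except tryptophan at 5 mM. The dyes were swapped between the 2 arrays of each source except tryptophan and tyrosine, whose arrays all had urea in Cy5. By the submitters' account, urea was chosen as the common comparator because its own breakdown is well understood and because neither nitrogen catabolite repression nor SPS control operates on it.

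Serine is a hydroxyl amino acid that yeast makes from a glycolytic intermediate and also takes up from the medium. As a nitrogen source it is split by the serine and threonine deaminase Cha1 into pyruvate and ammonium, and the transcription factor Cha4 turns CHA1 on when serine or threonine is present. Serine is also the donor of one-carbon units through serine hydroxymethyltransferase, and a precursor of glycine, cysteine, tryptophan, phosphatidylserine and sphingolipids. Readily used nitrogen sources keep the GATA activators Gln3 and Gat1 out of the nucleus, which lowers transcription of genes for poorer sources. That response is called nitrogen catabolite repression. External amino acids also act through the SPS sensor of the plasma membrane, which switches on amino acid permease genes.

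All values are log2 ratios of serine over urea, with the sign of replicate 2 turned, so that a positive value means more transcript on serine. No source used here names the base of the logarithm, and base 2 is assumed throughout. Array values are centred near 0, so a change in total messenger RNA per cell would not show. The 2 serine arrays gave 4020 and 4067 genes (all arrays 3294 to 5218, median 4708), and 39.4% and 40.9% of their spots had no value. Spots of the same gene on an array correlated at 0.968 on both serine arrays. Over the 3275 members the arrays correlated at 0.742, a description across genes, which are not independent replicates, and the median absolute difference between the arrays was 0.184.

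Of 3195 members tested, 766 passed an adjusted p of 0.05 in limma (24.0%), 406 of them higher (12.7%) and 360 lower (11.3%) on serine. In 761 of the 766 both arrays lay in the fitted direction. The changes were mostly small: the median rise was 0.49 and the median fall was -0.48, and 88.0% of tested genes lay within 0.5 of 0. At least 2-fold rises numbered 44 and falls of that size 51, while at least 4-fold rises numbered 7 and falls 15. The count was 300 without replicate 1 and 270 without replicate 2, and 166 genes were called with either array left out. Whether replicates 1 and 2 hold RNA of different cultures is not in the labels, so the spread between replicate arrays may be technical. Every SE and p-value here rests on that spread. In the main fit it was taken for each gene over the arrays of all sources, not from the serine arrays alone. A wide gap between the serine arrays of a gene thus need not give a large SE.

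**Figure D1:**
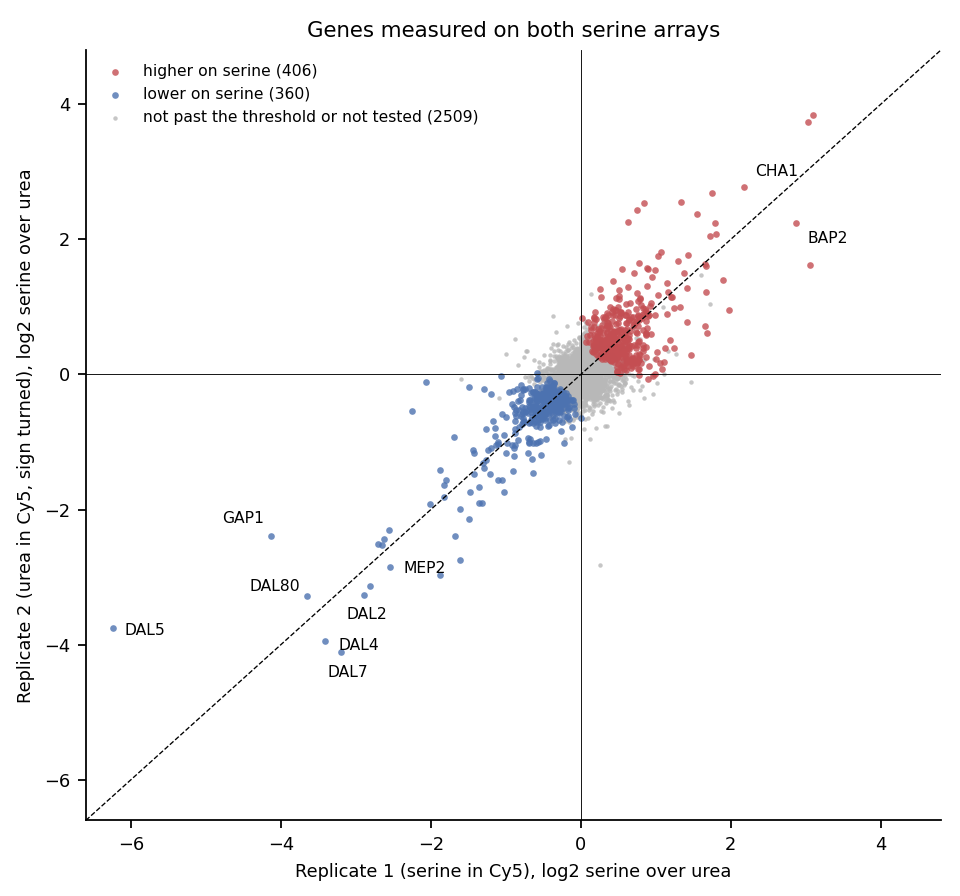
Each point is 1 of 3275 genes, with its log2 ratio of serine over urea on replicate 1 (horizontal) and on replicate 2 (vertical, sign turned); red marks 406 genes higher and blue 360 genes lower on serine at an adjusted p of 0.05, and the dashed line marks equal values. DAL5 and GAP1 lie furthest below 0 on replicate 1, and the genes of the allantoin cluster extend down the diagonal.

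The gene for serine breakdown was among the highest on serine. CHA1 had a log2 ratio of 2.18 on replicate 1 and 2.77 on replicate 2. Both arrays lay well above 0, and the fitted value was 2.48 ± 0.32 (SE, n = 2 arrays, limma adjusted p = 3.35e-06), a 5.57-fold higher level on serine than on urea. ILV1, the biosynthetic threonine deaminase, had -0.19 and -0.37 and did not pass (adjusted p = 0.0701). CHA4 had no value on both arrays and was not analysed here.

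A second serine deaminase gene went the other way. SDL1 had -1.49 and -2.15, both below 0, and fell by 1.82 on the log2 scale (SE 0.14, n = 2 arrays, limma adjusted p = 1.54e-09). Its neighbour YIL168W, which together with SDL1 makes up a serine dehydratase gene that is interrupted in the reference strain S288C, had -1.36 and -1.91 and fell by 1.63. Which form Σ1278b carries was not tested. MMF1 encodes a mitochondrial protein of the Rid family, whose bacterial relatives destroy the reactive enamine that serine and threonine deaminases release. It had 0.95 and 1.45 on the 2 arrays, both above 0, and rose by 1.20 ± 0.14 (SE, limma adjusted p = 1.06e-06).

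Genes that make and interconvert serine and glycine moved little. Of 12 tested members of the list on serine, glycine and threonine synthesis, 3 rose and 1 fell, against 12.7% and 11.3% of all tested genes, with a median of 0.05 against -0.0045 over all tested genes. SHM2, the cytosolic serine hydroxymethyltransferase, had 0.45 and 0.89 and rose by 0.67 ± 0.16 (SE, limma adjusted p = 0.00246). The threonine aldolase gene GLY1, whose product releases glycine, had 0.50 and 0.41 and rose by 0.45 ± 0.11 (SE, limma adjusted p = 0.0032). SER33, a phosphoglycerate dehydrogenase that starts serine synthesis, had 1.01 and 0.22, a wide gap between arrays, and a fitted value of 0.61 (adjusted p = 0.0157). Its paralogue SER3 had -0.22 and -0.53 and did not pass (adjusted p = 0.0804). The later enzymes of the pathway gave 0.07 for SER1 and -0.19 for SER2, and neither passed. THR1, homoserine kinase of threonine synthesis, had -0.43 and -0.32 and fell by 0.37 (adjusted p = 0.0217), whereas HOM2, HOM3, THR4, SHM1 and AGX1 lay between -0.25 and 0.36 and did not pass. Of the 3 higher genes, 1 was called without replicate 1 and 0 without replicate 2. The THR1 call ended without replicate 1 (-0.21), and the SER33 call also ended with a replicate block (adjusted p = 0.0519).

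None of the 8 tested members of the glycine cleavage and folate one-carbon list passed in limma, against 24.0% of all tested genes. Of these 8, 2 had an unadjusted p under 0.05, and the values of the 8 ran from -0.17 to 0.25. GCV2, the glycine dehydrogenase subunit, had -0.08 and -0.07. Among 10 genes of sulfur amino acid synthesis the S-adenosylmethionine synthetase gene SAM1 alone passed, at 0.47 (limma adjusted p = 0.0353), against 24.0% of all tested genes. The SAM1 call ended without either array and with a replicate block (adjusted p = 0.0858). CYS4, which condenses serine with homocysteine, had 0.20 and 0.21 and did not pass (adjusted p = 0.453). None of the 5 tryptophan synthesis genes passed in limma, again against 24.0%, 1 had an unadjusted p under 0.05, and the range was -0.24 to 0.01. On the routes from serine to membrane lipids few genes passed. The phosphatidylserine synthase gene CHO1 had 0.14 and 0.11 and did not pass. The mitochondrial decarboxylase gene PSD1 rose by 0.43 (adjusted p = 0.0136), the sphingolipid gene IPT1 by 0.73 (adjusted p = 0.000717) and the serine palmitoyltransferase subunit LCB2 by 0.34 (adjusted p = 0.0398). In all, 2 of 13 genes rose and 2 fell on the phospholipid list, and 2 of 13 rose and 1 fell on the sphingolipid list, against 12.7% higher and 11.3% lower over all tested genes, so the counts lay near the background. Without replicate 1 these were 0 and 0, and 1 and 0, and without replicate 2 they were 0 and 1, and 0 and 0. The PSD1 and LCB2 calls ended without either array and that of IPT1 without replicate 2, and LCB2 also lost its call with a replicate block (adjusted p = 0.0912).

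**Figure D2:**
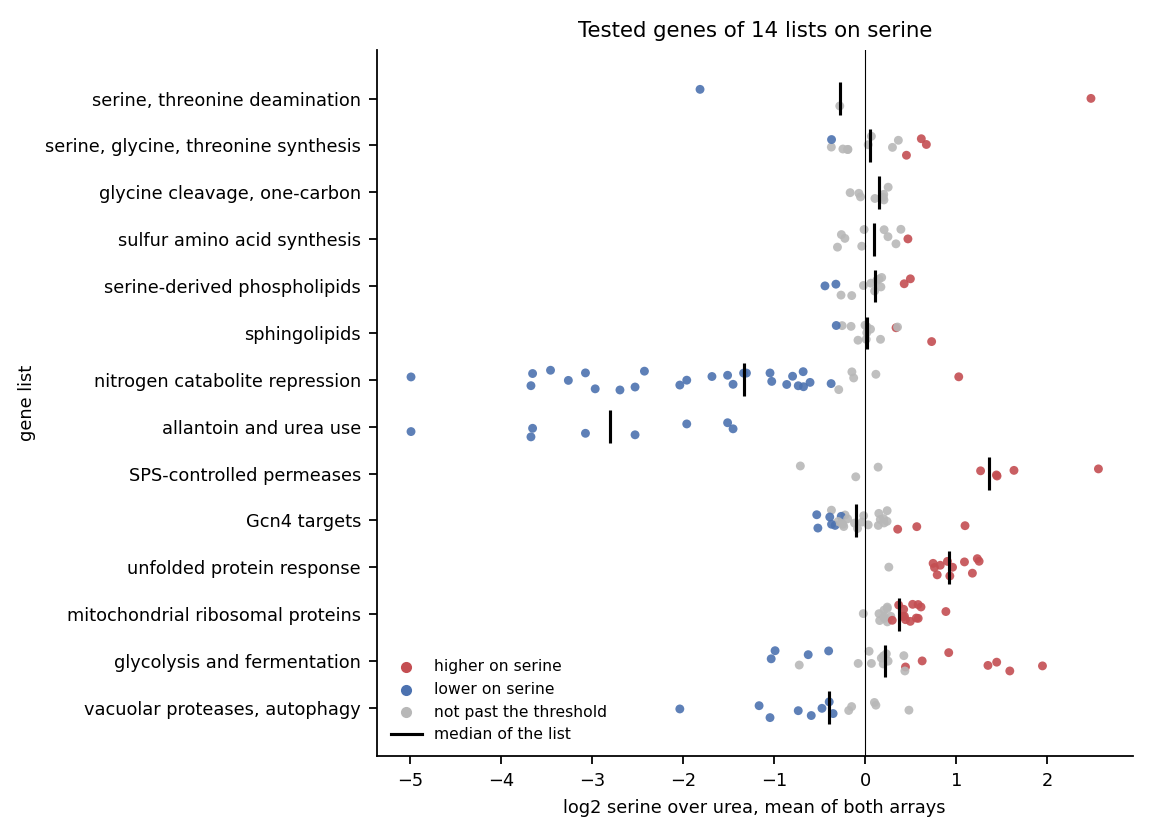
Each point is a tested gene of 1 of 14 lists, placed by its log2 ratio of serine over urea (mean of both arrays); red and blue mark genes higher and lower on serine at an adjusted p of 0.05, grey the rest, and the black bar is the list's median. The allantoin and urea genes (median -2.80) and the catabolite repression genes (median -1.34) lie left of 0, the unfolded protein response genes (median 0.92) right of it, and the lists of serine metabolism straddle it.

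Genes under nitrogen catabolite repression were the lowest on serine. Of 31 tested, 26 fell and 1 rose, against 11.3% lower and 12.7% higher among all tested genes, and their median was -1.34. DAL5, the allantoate permease gene, had -6.23 and -3.75 on the 2 arrays, both far below 0, and fell by 4.99 (SE 0.37, n = 2 arrays, limma adjusted p = 7.69e-10), or 31.8-fold. The GATA repressor gene DAL80, itself a target of the response, had -3.65 and -3.27 and fell by 3.46 (SE 0.27, limma adjusted p = 1.69e-09). GAP1, the general amino acid permease gene, had -4.13 and -2.40 and fell by 3.26 (SE 0.38, limma adjusted p = 6.07e-07). On DAL5 and GAP1 the arrays differed by more than on most genes, but both were below 0.

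Genes for the use of allantoin and urea were lower on serine throughout. All 8 tested members of that list fell, against 11.3% of all tested genes, with a median of -2.80. These 8 are also on the catabolite repression list and were counted there. They included DAL4, the allantoin permease gene, at -3.41 and -3.94, and DAL7, a malate synthase of the allantoin route, at -3.20 and -4.11. DAL2, allantoicase, had -2.89 and -3.26. DUR3, the urea transporter gene, had -2.01 and -1.92, and fell by 1.96 (adjusted p = 4.04e-05). Urea amidolyase is not analysed here.

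The ammonium permease genes split. MEP2, the high-affinity permease, had -2.55 and -2.85 and fell by 2.70 (SE 0.25, limma adjusted p = 2.78e-08). MEP1 had -0.53 and -1.20 and fell by 0.86. MEP3, a low-affinity permease, had 1.15 and 0.90, both above 0, and was the 1 member of the repression list that rose, by 1.03 ± 0.12 (SE, limma adjusted p = 1.17e-06). Among the GATA factors, the activator GAT1 fell by 1.34 and the repressor GZF3 by 0.68, while the activator GLN3, at -0.18, and its cytoplasmic regulator URE2, at 0.06, did not pass. Of 9 genes of ammonium assimilation and glutamate metabolism, 2 fell and 2 rose, against 11.3% and 12.7% of all tested genes. Glutamine synthetase (GLN1) fell by 1.69 and glutamate synthase (GLT1) by 1.34. Asparagine synthetase 2 (ASN2) had 1.68 and 0.62, far apart, and rose by 1.15. The mitochondrial aspartate aminotransferase AAT1 rose by 0.85. ASN1, the other asparagine synthetase gene, had 0.70 and -0.22 and did not pass (limma adjusted p = 0.43).

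Other low genes were the vacuolar basic amino acid transporter VBA1 (-2.81 and -3.13), the proline permease PUT4 (-2.56 and -2.30) and the vacuolar carboxypeptidase CPS1 (-1.68 and -2.39). MLS1, the malate synthase of the glyoxylate cycle, had -1.88 and -2.97. All 4 lay below 0 on both arrays. NIT1, a nitrilase relative, and the less studied genes YHI9, LEE1 and DCG1 fell by at least 2.18 on the log2 scale.

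Most tested amino acid permeases controlled by the SPS sensor were higher on serine. Of 8 tested genes on that list 5 rose, against 12.7% of all tested genes, and the median was 1.35. Set against the other sources, as described further on, 0 of the 8 were higher and 1, AGP1, was lower. Over all tested genes 0.282% were higher and 1.41% lower in that comparison. BAP2, a permease for branched-chain amino acids, had 2.87 and 2.25 and rose by 2.56 ± 0.48 (SE, limma adjusted p = 0.000483). GNP1, a glutamine permease, had 1.67 and 1.60, TAT1 had 1.38 and 1.50, and the methionine permease MUP1 had 0.99 and 1.54. The broad-range permease gene AGP1 had 1.67 and 1.23 and rose by 1.45 ± 0.46 (SE, limma adjusted p = 0.0247), a call that ended without either array. BAP3, measured on too few arrays for a test, had 1.72 and 1.05. The dicarboxylic amino acid permease DIP5 had -1.08 and -0.34 and did not pass (adjusted p = 0.208), and neither did the sensor pathway genes SSY5 and STP1.

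The highest fitted values over urea belonged to VEL1 and YOR387C. VEL1, of unknown function, had 3.10 and 3.84 and rose by 3.47 ± 0.49 (SE, n = 2 arrays, limma adjusted p = 9.46e-06). YOR387C had 3.03 and 3.74, with a wide error, at 3.38 ± 0.71 (SE, limma adjusted p = 0.00107). Without replicate 1 the adjusted p of YOR387C was 0.0803 and that of YHR213W 0.0882. SED1, a structural cell wall protein, rose by 2.21, ADH4, an alcohol dehydrogenase made when zinc is short, by 1.95, MCD4, of anchor synthesis for surface proteins, by 1.94, and the mannoprotein gene TIP1 by 1.65. Of 11 tested genes on the cell wall list, which holds SED1 and TIP1, 5 rose against 12.7% of all tested genes, and the median was 0.34. The 5 were 3 without replicate 2 and 2 without a dye term. ZPS1, a zinc-responsive surface protein, had 0.84 and 2.54, and its adjusted p without a dye term was 0.102. VEL1 lay between 1.63 and 4.45, and SED1 between 1.03 and 3.60, on the other 19 sources. These 2 genes were thus above urea on every source, with serine at rank 11 of 20 for VEL1 and rank 10 of 20 for SED1. Set against the other sources, none of the 11 cell wall genes passed in limma (1.69% of all tested genes).

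**Figure D3:**
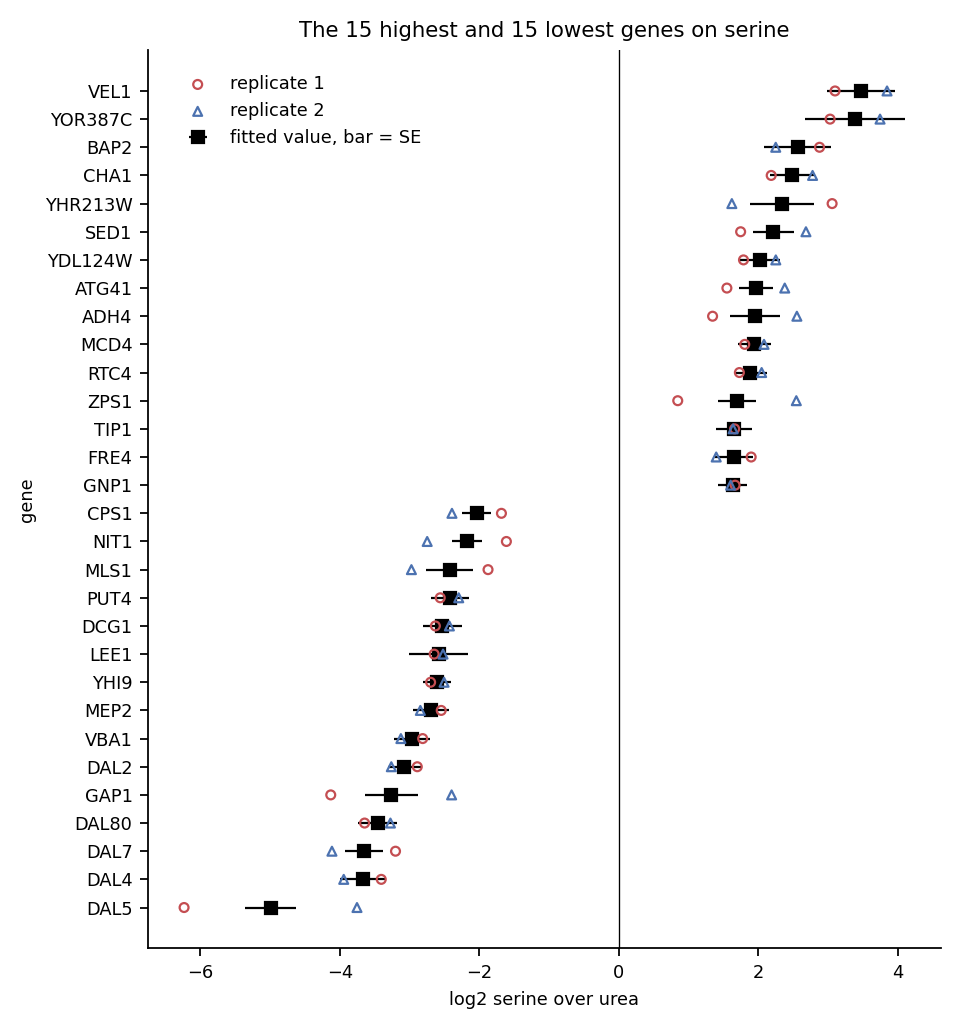
The 15 highest and the 15 lowest genes past the threshold are shown by log2 ratio of serine over urea, with the red circle for replicate 1, the blue triangle for replicate 2 and the black square for the fitted value with its SE. Genes were picked only if both array values lay on the side of 0 of the fitted value, so that agreement is no result. The arrays are furthest apart for DAL5 (-6.23 and -3.75).

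Genes of protein folding in the endoplasmic reticulum rose together. Of 12 tested genes on the unfolded protein response list 11 rose, against 12.7% of all tested genes, with a median of 0.92 against -0.0045 over all tested genes. KAR2, the Hsp70 chaperone of that compartment, had 1.15 and 1.35 and rose by 1.25 (adjusted p = 5.22e-05). Its nucleotide exchange factor SIL1 rose by 1.23, the disulfide isomerase PDI1 by 1.09, and HAC1, the transcription factor of the response, by 1.18. The translocon subunit SEC62, with 0.15 and 0.37, did not pass. The count was 11 without replicate 1 and 11 without replicate 2. Set against the other sources, as described further on, 1 of the 12, EUG1, was higher on serine.

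Mitochondrial ribosomal protein genes rose in 13 of 23 cases, against 12.7% of all tested genes, with a median of 0.37. Set against the other sources, none of the 23 passed in limma (1.69% of all tested genes). At an unadjusted p of 0.05, 3 were higher there. MRP4 had 1.475 and 0.29, far apart, and its fitted 0.88 was 0.35 without replicate 1 (adjusted p = 0.19). The count of 13 was 2 without replicate 1, 8 without replicate 2 and 7 without a dye term. Of 22 genes of glycolysis and fermentation 7 rose and 4 fell, against 12.7% higher and 11.3% lower over all tested genes. None of the 22 passed in limma against the other sources, and 4 were higher there at an unadjusted p of 0.05. TDH1, a glyceraldehyde phosphate dehydrogenase, had 0.74 and 2.43 and lost its call without replicate 2 (0.84), and PGK1, phosphoglycerate kinase, had 1.41 and 1.28. The hexose transporter genes HXT2 (-1.03) and HXT3 (-0.63) fell. The glycolysis list gave 3 higher and 1 lower gene without replicate 2, and 7 and 2 without replicate 1. The pyruvate carboxylase gene PYC1 was the 1 gene of 15 on pyruvate use that passed, against 24.0% of all tested genes. PYC1 had -1.002 and -0.62, and its call ended without replicate 1. The decarboxylase gene PDC1 had 0.32 and 0.45 and did not pass. Gene families of near-identical sequence, such as TDH1, TDH2 and TDH3 or ENO1 and ENO2, can share signal on a probe.

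Of 13 genes for vacuolar proteases and autophagy 8 fell, against 11.3% of all tested genes, led by CPS1 and the mitophagy receptor gene ATG32 at -1.17, and 4 and 5 did so without replicate 1 and without replicate 2. Sterol synthesis had 8 lower genes and 1 higher of 21, against 11.3% and 12.7%, with the lanosterol demethylase ERG11 lowest at -0.68, and 2 and 1 lower genes when replicate 1 and replicate 2 were left out. Of 28 genes under Gcn4, the activator of amino acid synthesis, 3 rose and 6 fell, against 12.7% and 11.3% over all tested genes, with ARG8 of arginine synthesis highest at 1.10. GCN4 itself was at -0.53, and at -0.29 without replicate 1 (adjusted p = 0.473). None of the 28 was called lower without replicate 1, and 2 were without replicate 2, and 1 was called higher in each of these fits. Of 28 cytosolic ribosomal protein genes 5 fell, against 11.3% of all tested genes, and none rose, with a median of -0.25. At an unadjusted p of 0.05 in limma, 13 were lower and 0 higher. Fewer were called lower with either serine array left out.

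Serine was next set against the mean of the other 19 sources, each measured over urea as serine was. The dye does not cancel in that mean, since tryptophan and tyrosine had no dye swap, and the fit kept its dye term. Of 3187 genes that could be tested, 54 passed in limma (1.69%), 9 of them higher (0.282%) and 45 lower (1.41%) on serine. At an unadjusted p of 0.05 there were 308, and without a dye term 28 passed. Without serine replicate 1 there were 11 and without replicate 2 there were 21. The 6 genes called with either array left out were CHA1 and MMF1, both higher, and DAL80, CAR1, SDL1 and AMD2, all lower.

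**Figure D4:**
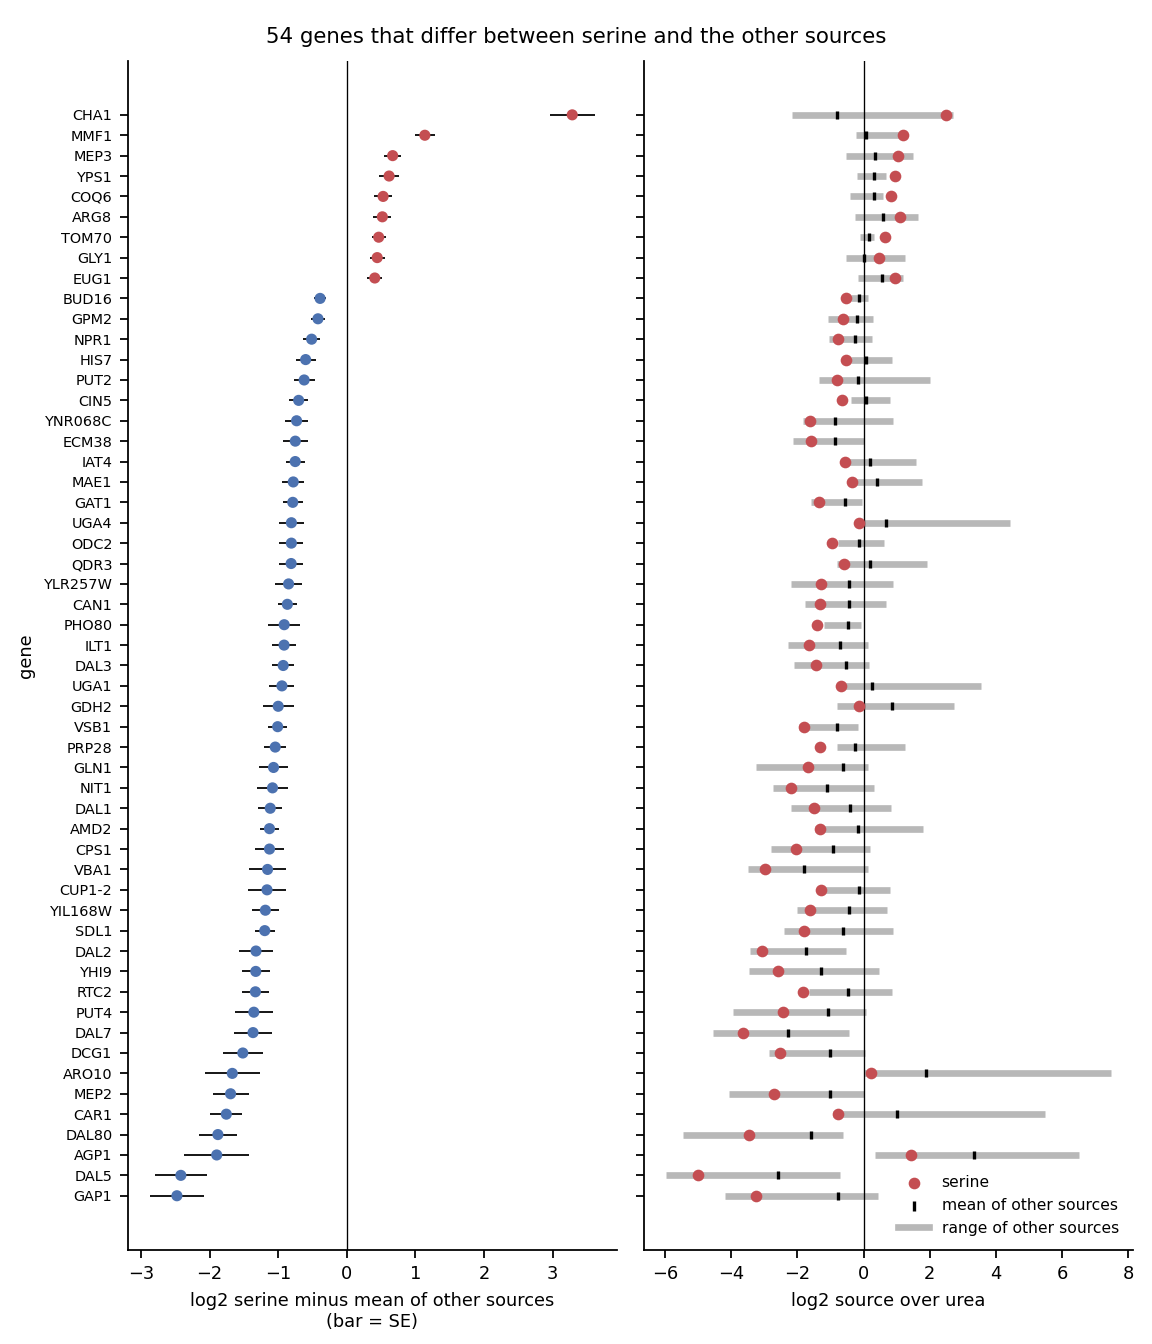
The 54 genes that differ between serine and the other 19 sources, ordered by the difference: on the left the log2 serine value minus the mean of the other sources with its SE, on the right the serine value (red), the mean of the other sources (black tick) and their range (grey bar), all as log2 over urea. CHA1 stands apart at 3.29, and 45 of the 54 genes lie below 0 on the left.

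CHA1 had the largest of these differences, 3.29 ± 0.33 (SE, limma adjusted p = 1.32e-06), with 2.48 on serine against a mean of -0.81 on the 18 other sources with a value. Threonine gave 2.71, tryptophan 0.71 and isoleucine 0.18. The remaining sources lay between -0.12 and -2.16. Serine held rank 2 of 19, and its neighbour above it, threonine, did not differ from it beyond the error, as given with the pair below.

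MMF1 showed 1.20 on serine against a mean of 0.06 on the others, a difference of 1.14 ± 0.15 (SE, limma adjusted p = 3.63e-05). Threonine gave 1.25 and alanine 0.43, and every other source lay between -0.24 and 0.24. MEP3 had 1.03 on serine against a mean of 0.36, with methionine at 1.49 and leucine at 0.83. Its difference of 0.67 had an adjusted p of 0.00227, and 0.244 without serine replicate 1.

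TOM70, the receptor that takes proteins into mitochondria, had 0.78 and 0.49 on the serine arrays and a fitted 0.63, the highest of all 20 sources, whose others ran from -0.10 to 0.31. The difference was 0.46 ± 0.10 (SE, limma adjusted p = 0.00951), and it was 0.28 without serine replicate 1 (adjusted p = 0.686). Serine was also the highest of 15 sources with a value for YPS1, a surface aspartyl protease (0.93, others up to 0.67), and of 18 for COQ6 of ubiquinone synthesis (0.84, others up to 0.59). GLY1, ARG8 and the disulfide isomerase relative EUG1 were higher by 0.44, 0.52 and 0.41. The calls of YPS1, COQ6, GLY1 and EUG1 ended without either serine array, that of ARG8 without replicate 1 (0.21, adjusted p = 0.921), and those of COQ6 and EUG1 with a replicate block. COQ6 differed by 0.53, and by 0.34 without replicate 2. With tryptophan and tyrosine left out the calls of YPS1, COQ6, ARG8 and EUG1 ended, at differences of 0.59, 0.46, 0.51 and 0.36.

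**Figure D5:**
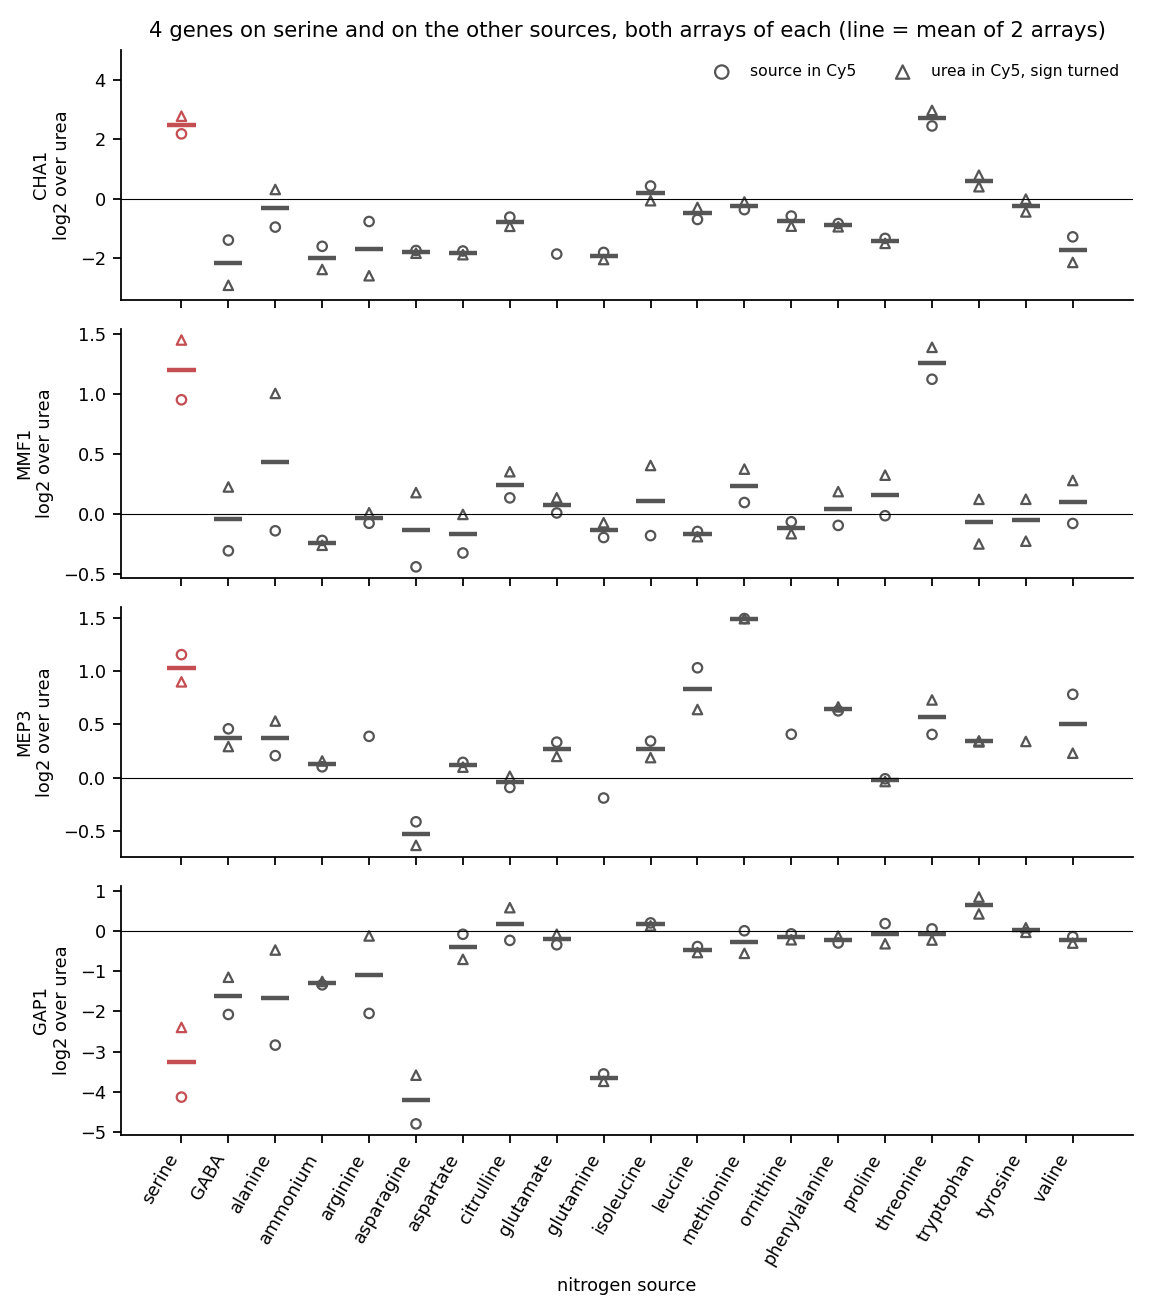
Log2 ratios over urea of CHA1, MMF1, MEP3 and GAP1 on serine (red, left) and on the other 19 sources, with a circle for an array with the source in Cy5, a triangle for urea in Cy5 and a line for the mean of 2 arrays. CHA1 and MMF1 are high on serine and threonine, at 2.48 and 2.71 for CHA1, and GAP1 is low on serine (-3.26), asparagine (-4.19) and glutamine (-3.65).

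Catabolite repression genes were lower on serine than on the other sources as a group, too: 19 of 31 were lower and 1 higher, against 1.41% and 0.282% of all tested genes, with a median of -0.87. Leaving out either serine array reduced the 19 to 4. GAP1 differed by -2.48 ± 0.39 (SE, limma adjusted p = 0.000263), with -3.26 on serine against a mean of -0.79. Asparagine (-4.19) and glutamine (-3.65) were lower than serine, and the others lay between -1.66 and 0.44. DAL5 differed by -2.42, DAL80 by -1.88 and MEP2 by -1.69. The GAP1 call ended without serine replicate 1 (-1.76, adjusted p = 0.227) and so did that of DAL5 (-1.59, adjusted p = 0.251). MEP2 lost its call without replicate 2 (-1.46, adjusted p = 0.0746), and DAL80 kept its call without either array. The urea transporter gene DUR3 did not follow, with -1.96 on serine at rank 2 of 20.

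The arginase gene CAR1 had -0.79 and -0.73 on the serine arrays, close together. At -0.76 it was 1.76 below the mean of the others (SE 0.23, limma adjusted p = 4.18e-05), whose range reached 5.47. The permease AGP1, although higher on serine than on urea, was lower by 1.90 than on the other sources. The AGP1 call ended without either serine array and without a dye term. It also ended with tryptophan and tyrosine left out (-1.55, limma adjusted p = 0.165). ARO10, a decarboxylase of aromatic amino acid breakdown, had 0.23 on serine against a mean of 1.90 and a highest value of 7.46. Its difference was -0.81 (adjusted p = 0.619) with tryptophan and tyrosine left out, and its call ended without either serine array.

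Serine was the lowest source with a value for 10 of the 45 lower genes, and 5 of these had values on all 20 sources; they are named after their values were seen. RTC2, a vacuolar membrane protein, had -1.82 and -1.81 on the serine arrays. It was nearly as low on glutamine (-1.65), asparagine (-1.56), aspartate (-1.49) and ammonium (-1.46). The remaining sources ran from -0.97 on alanine to 0.85 on methionine. MAE1, the mitochondrial malic enzyme that makes pyruvate, had -0.23 and -0.50. ODC2, a carrier of oxodicarboxylates in mitochondria, had -0.87 and -1.04. The cyclin gene PHO80 had -2.26 and -0.54, far apart, and CUP1-2, a metallothionein gene with a near-identical copy, had -1.43 and -1.16. Their differences from the other sources were -1.33 for RTC2, -0.78 for MAE1, -0.81 for ODC2, -0.91 for PHO80 and -1.16 for CUP1-2. None of the 5 was called in both of the fits that leave out a serine array.

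Threonine and alanine were compared with serine as related molecules at the same dose. Threonine keeps the hydroxyl group of serine and carries an additional methyl group on the side chain, and alanine has the carbon skeleton of serine without the hydroxyl group. Both sources were grown and measured as serine was, 2 pairs were compared, and p-values were adjusted over the genes of both.

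Serine and threonine differed at 86 of 2972 genes in limma (2.89%), 8 higher (0.269%) and 78 lower (2.62%) on serine. There were 42 such genes without serine replicate 1, 37 without serine replicate 2, 57 without threonine replicate 1 and 38 without threonine replicate 2, and 24 were called in all 4 of these fits. CHA1, at 2.48 on serine and 2.71 on threonine, gave a difference of -0.23 with a 95% interval of -1.16 to 0.70. MMF1, at 1.20 on serine and 1.25 on threonine, gave -0.06. Neither passed, and these intervals do not show that the 2 amino acids act alike.

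SDL1 was at -1.82 on serine and 0.67 on threonine, a difference of -2.49 ± 0.20 (SE, n = 2 arrays each, limma adjusted p = 3.46e-08), and YIL168W differed by -2.28. DAL5 had -4.99 on serine and -1.47 on threonine, a difference of -3.53 ± 0.52 (SE, limma adjusted p = 0.000182). GAP1 had -3.26 on serine and -0.09 on threonine, and MEP2 had -2.70 on serine and -0.06 on threonine. Of 31 catabolite repression genes 20 were lower on serine than on threonine, against 2.62% of all tested genes, and 12 to 15 when 1 of the 4 arrays was left out. None was higher in limma, against 2 at an unadjusted p of 0.05. AGP1 had 1.45 on serine and 4.72 on threonine, and CAR1 had -0.76 on serine and 1.81 on threonine. GNP1, with 1.63 on serine and 2.96 on threonine, differed by -1.33 (adjusted p = 0.0196), a call that ended without serine replicate 1, serine replicate 2 or threonine replicate 2 (-0.82). The AGP1 call ended when serine replicate 1, serine replicate 2 or threonine replicate 1 was left out, and the GAP1 call ended without serine replicate 1.

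The genes higher on serine than on threonine included EUG1 (0.96 on serine, 0.03 on threonine; adjusted p = 0.000427), YPS1 (0.93 on serine, 0.02 on threonine) and the enolase gene ENO2 (0.44 on serine, -0.29 on threonine). HXT2, a hexose transporter, had -1.03 on serine and -1.998 on threonine, a difference of 0.96 ± 0.25 (SE, limma adjusted p = 0.0463). OST2 and SEC53, both of protein glycosylation, were higher by 0.76 and 0.69. The calls of HXT2, OST2 and SEC53 ended with a replicate block. They ended when any 1 of the 4 arrays was left out, as did that of YPS1, and the ENO2 call ended without serine replicate 2 or threonine replicate 1. Of 28 Gcn4 targets 8 were lower on serine than on threonine, against 2.62% of all tested genes, and 0 to 4 when 1 of the 4 arrays was left out.

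Serine and alanine differed at 9 of 3036 genes in limma (0.296%), 5 higher (0.165%) and 4 lower (0.132%) on serine. There were 229 at an unadjusted p of 0.05. With a replicate block there were 3. Leaving out serine replicate 1 gave 2, serine replicate 2 gave 6, alanine replicate 1 gave 66 and alanine replicate 2 gave 5. CHA1 was the 1 gene called in all 4 of these fits, with 2.48 on serine and -0.32 on alanine, a difference of 2.80 ± 0.45 (SE, n = 2 arrays each, limma adjusted p = 0.000521).

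The allantoinase gene DAL1 had -1.51 on serine and -0.09 on alanine, a difference of -1.42 ± 0.24 (SE, limma adjusted p = 0.000805). DAL3, the ureidoglycolate lyase gene, had -1.45 on serine and -0.41 on alanine (adjusted p = 0.00975). Without alanine replicate 2 the differences were -0.83 for DAL1 and -0.53 for DAL3, and both calls ended. The DAL3 call also ended without either serine array. NDE1, an external NADH dehydrogenase of mitochondria, had 1.44 on serine and 0.07 on alanine, a difference of 1.37 that was 0.60 without alanine replicate 2 (adjusted p = 0.76) and 2.14 without alanine replicate 1. MEP3 and GLY1 were higher on serine by 0.66 and 0.61. TEF2 was higher by 0.86, while RPL26B and LIF1 were lower by 0.89 and 0.86 on serine; TEF2 and RPL26B have near-identical copies. The calls of NDE1, MEP3, GLY1, TEF2, RPL26B and LIF1 ended with a replicate block, and each also ended without serine replicate 1. Without alanine replicate 2 the difference of LIF1 was -0.47.

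For most catabolite repression genes the pair with alanine gave no call. Of 30 tested, 2 were lower and 1 was higher on serine, against 0.132% lower and 0.165% higher over all tested genes. Without alanine replicate 1 the lower genes numbered 9, and without alanine replicate 2 there were 0. GAP1 had -3.26 on serine and -1.66 on alanine, a difference of -1.61 with a 95% interval of -2.71 to -0.51 before adjustment (adjusted p = 0.182). DAL5 had -4.99 on serine and -3.58 on alanine, with an interval of -2.48 to -0.34 (adjusted p = 0.26). VBA1, at -2.97 on serine and -2.99 on alanine, gave 0.02, and SDL1, at -1.82 on serine and -1.80 on alanine, gave -0.02 with an interval of -0.43 to 0.40. MMF1, at 1.20 on serine and 0.43 on alanine, differed by 0.77 (adjusted p = 0.0538). The 2 alanine arrays of MMF1 were far apart, as the plot of these genes by source shows.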

How the data were processed

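The deposited values are log2 ratios of Cy5 over Cy3, 1 per spot, made by the authors: per the labels, polyA RNA from a source and from urea shared each array. No source used here gives the normalization, background correction or base of the logarithm. Interquartile ranges were 0.408 and 0.405 on the serine arrays. Over all arrays they were nearly equal, from 0.404 (ornithine replicate 2) to 0.411 (leucine replicate 1). Whether the arrays had been scaled to a common spread was not tested. If they were, the sizes of changes over urea and of differences between sources would rest on scaled ratios. Probes were named from the platform annotation, updated through RefSeq's gene table, and spots of a gene were averaged after turning the sign where urea was in Cy5.

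Genes measured on 30 or more of the 40 arrays entered 1 limma fit (3.58.1, R 4.3.3), in which each source had a signed term and the dyes an intercept, two-sided, with Benjamini-Hochberg adjustment. Of the members, 80 were not tested. The contrast with other sources needed both arrays of at least 10 of them. The fit was tested on simulated data. Replicate numbers coincide with dye order except for tryptophan and tyrosine, which have no dye swap. Differences between replicates 1 and 2 correlated at 0.127 to 0.649 in all 153 pairs of sources with both dye orders. Replicate number and dye order coincide in these sources, so the correlations cannot separate a pairing of arrays by number from a dye effect. Whether the numbers pair the arrays was not tested. A replicate block was among the alternatives. Members and gene lists were chosen with earlier results of these data known. Named were the 15 highest and 15 lowest genes over urea among those past the threshold with both arrays in the fitted direction. The 10 highest and 10 lowest against the other sources and the 6 highest and 6 lowest per pair were also named. So were the members of the serine, GATA and sulfur lists, and up to 4 of any other list.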

Additional observations from a re-analysis of the deposited data

Results flagged for a closer look

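Serine differed from the other 19 sources, by the test of the difference itself, at 54 genes, with CHA1 highest at 3.29 and GAP1 lowest at -2.48. Serine differed from threonine at 86 genes, with HXT2 highest at 0.96 and DAL5 lowest at -3.53. Serine differed from alanine at 9 genes, with CHA1 highest at 2.80 and DAL1 lowest at -1.42.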

How the results depend on the processing

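Of the 766, 54, 86 and 9 genes called in the 4 comparisons, 1 changed sign in an alternative that gave it a value: RAD5, over urea without replicate 1, where it was not called. Over urea, 766 genes were called as reported, 469 without a dye term, 358 among genes with values on all 40 arrays, 1325 with array weights, 487 from the serine arrays alone, 684 with the replicate block, and 270 to 300 with a serine array left out. Against the other sources the 54 genes became 28 without a dye term, 176 with array weights, and 11 to 21 with a serine array left out, and 37 in each of 3 fits: on genes with values on all 40 arrays, without tryptophan and tyrosine, and with all 19 sources required. Against threonine the 86 became 50 without a dye term, 53 on genes with values on all 40 arrays, 130 with array weights, 139 from the arrays of both sources alone, and 37 to 57 with an array left out. Against alanine the 9 became 3 without a dye term, 3 with the replicate block, 6 on genes with values on all 40 arrays, 18 with array weights, 4 from the arrays of both sources alone, and 2 to 66 with an array left out. The cause of these shifts was not tested, except that fewer genes or arrays entered some fits. Subtracting array medians, taking genes on at least 20 arrays and the median of spots kept every count within 1.5 times. Apart from the calls named above, the replicate block left the counts over urea, against the other sources and against threonine within 1.5 times. For serine, threonine and alanine this block coincides with the dye term, so it was no separate check on their arrays.

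The precision is limited by 2 arrays per source, and spots without a value left out 2282 of 5557 genes. Table, dye order and replicate number coincide for serine, threonine and alanine, so they cannot be told apart between their 2 arrays.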

Other observations

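Several members of smaller lists were not described above. The stress genes CTT1, of catalase T, and GSY1, of glycogen synthase, rose by 1.60 and 0.82, and 4 of 11 tested genes on the stress and reserve carbohydrate list rose. On the iron regulon list 4 of 13 rose, both against 12.7% of all tested genes, with TIS11, an RNA-binding protein that acts on iron-related transcripts, highest at 0.86. The stress list gave 1 higher gene without replicate 1 and 0 without replicate 2, and the iron list 0 and 1. VTC3, of polyphosphate synthesis, rose by 1.20 while 3 other members of the 11 tested on the phosphate list fell. Over all tested genes 12.7% rose and 11.3% fell. Fewer genes of the phosphate list were called lower with either serine array left out. The sulfate permease SUL1 had -0.999 and -1.16 and fell by 1.08. It was the 1 member of 11 on the sulfate list that fell, against 11.3% of all tested genes. ARO8, an aromatic aminotransferase, fell by 1.18, and the purine-cytosine permease FCY2 by 0.62, a call that ended without either array.

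Some genes had a value on 1 serine array only and were not tested. Among them MIG3, a transcription factor gene, had -4.14 on replicate 1, PUT1, proline oxidase, had -2.64 on replicate 2, and the tryptophan permease TAT2 had 1.81 on replicate 2. Probes with no gene name gave values at 263 spots of replicate 1, from -9.62 to 3.89, and at 210 spots of replicate 2, from -2.38 to 1.48.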
